A study of Mus musculus with 6 samples.

Results

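Of the 54532 genes in the deposited count table, 9 are described here: complement components C1qa, C1qb, C1qc, C3, C4b and Cfb, the inhibitor Serping1, and the receptors C3ar1 and C5ar1. They were taken by symbol, and all 9 were present and passed the filter on low counts. RNA was sequenced from abdominal aorta of mice at day 7 after an aneurysm (a widening of the vessel) was induced, with 3 libraries from Olfr2 KO mice and 3 from WT mice. Olfr2 encodes an olfactory receptor. Tissue, day and induction were common to both groups. The sources used here give neither age, sex and strain, nor the cells in which the allele is lost, the way the aneurysm was induced or the number of animals behind a library, so p-values measure only the spread between these libraries. Per-library values below run from replicate 1 to replicate 3 of each genotype, and these numbers carry no order.

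Complement is a cascade of plasma and tissue proteins that tags particles for uptake and calls in leukocytes. In the classical route, C1q, assembled from the chains A, B and C, binds a target and activates the proteases C1r and C1s, which cleave C4 and C2. All routes meet at C3, whose fragment C3b also binds factor B to form the convertase of the alternative route. The fragments C3a and C5a signal through the receptors that C3ar1 and C5ar1 encode, and C1 inhibitor, the product of Serping1, blocks C1r and C1s. The liver makes most plasma complement, whereas C1q comes largely from macrophages, and fibroblasts and other stromal cells make C3, C4 and C1 inhibitor locally.

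Library totals ran from 17248918 to 21872027 counts, and the 9 genes together took 0.593 to 0.850% of them. Olfr2 itself had 0 counts in all 6 libraries, which allows at most 3 counts in each, so it checks no genotype label. Some libraries stood apart. WT replicate 2 held 31.7 CPM (counts scaled to a library of 1000000 counts, with library sizes adjusted by TMM factors) of the lysozyme gene Lyz2, against 3871 to 5899 CPM in the other 5, and 448 CPM of its near copy Lyz1, against 9.84 to 39.3 CPM. KO replicate 3 held 193 CPM of the skeletal muscle actin gene Acta1, against 0.115 to 1.79 CPM elsewhere. In WT replicate 3 the 13 white adipocyte markers used further on summed to 1621 CPM, against 409 and 487 CPM in WT replicates 1 and 2. Values with 1 library left out are given for many of the results below.

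Genes listed as markers of the cells named above were then read. All 16 macrophage markers were tested, led by Csf1r (735 to 980 CPM), Laptm5 and Gas6, and so were all 12 fibroblast markers. Being tested shows only that a gene passed the filter on low counts. Which cells of the tissue gave these transcripts was not tested. Of 10 hepatocyte markers 9 were in the table and 2 were tested, Hp at 950 to 2089 CPM and Ahsg at 8.21 to 14.6 CPM. Hp is also in the acute phase list described further on. Albumin (Alb) had 0 to 5 counts per library and fibrinogen (Fgb) had 0 in all.

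The C1q chains and C5ar1 followed a like course over the libraries and C3 another, as described further on. Sequences upstream of the members are shown beside this, and whether their motifs bear on these courses was not tested. RefSeq's promoter windows on GRCm38.p6, from 250 bases before to 50 after a start site, held 5 of the 9 members: C1qb, C1qc, C3, C3ar1 and C5ar1. Each was searched on both strands for the interferon-stimulated response element core GAAANNGAA, the gamma-activated site TTCNNNGAA, the core bound by the myeloid factor PU.1, GAGGAA, and the C/EBP core TTGCNNAA. Of 32851 windows of this length, 8.56, 8.3, 28.3 and 10.8% held these motifs, in that order. All 4 windows printed lie on the minus strand and read 5′ to 3′ along the gene, with matches in capitals. C1qb is at chr4:136886151-136886450 with 1 PU.1 core, C1qc at chr4:136892865-136893164 with 1 PU.1 core (on the other strand), C5ar1 at chr7:16259289-16259588 with 1 response element core (on the other strand), and C3 at chr17:57228087-57228386 with 1 C/EBP core.
C1qb: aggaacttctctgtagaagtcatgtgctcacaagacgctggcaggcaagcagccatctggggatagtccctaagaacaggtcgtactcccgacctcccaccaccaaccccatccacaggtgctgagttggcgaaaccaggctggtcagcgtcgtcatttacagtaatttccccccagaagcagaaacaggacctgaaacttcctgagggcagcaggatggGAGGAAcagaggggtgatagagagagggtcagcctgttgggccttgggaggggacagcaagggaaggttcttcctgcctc
C1qc: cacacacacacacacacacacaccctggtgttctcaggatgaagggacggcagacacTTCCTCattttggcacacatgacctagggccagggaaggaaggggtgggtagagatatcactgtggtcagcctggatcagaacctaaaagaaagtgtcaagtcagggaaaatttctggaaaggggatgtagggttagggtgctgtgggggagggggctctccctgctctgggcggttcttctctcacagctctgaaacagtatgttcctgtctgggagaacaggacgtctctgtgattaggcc
C5ar1: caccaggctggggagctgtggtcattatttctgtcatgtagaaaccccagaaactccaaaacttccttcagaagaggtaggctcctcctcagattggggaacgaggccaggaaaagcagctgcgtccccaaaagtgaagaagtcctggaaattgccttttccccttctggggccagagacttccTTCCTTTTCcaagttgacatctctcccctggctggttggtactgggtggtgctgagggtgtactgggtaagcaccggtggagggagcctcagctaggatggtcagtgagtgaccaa
C3: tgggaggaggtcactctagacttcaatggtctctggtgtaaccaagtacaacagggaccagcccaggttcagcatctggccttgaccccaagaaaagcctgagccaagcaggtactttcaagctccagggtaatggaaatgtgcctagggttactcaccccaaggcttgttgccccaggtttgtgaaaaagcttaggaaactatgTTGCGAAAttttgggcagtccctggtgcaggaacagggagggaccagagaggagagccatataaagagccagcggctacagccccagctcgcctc
No member window held the gamma-activated site and the C3ar1 window held none of the 4 motifs, which says only that these letters are not in these 300 bases.

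All 9 members had a lower mean in KO, by log2 fold changes of -0.14 to -0.95 with a median of -0.22, where the median over all 16237 tested genes was 0.006 and 48.8% of them had a value below 0. None of the 9 passed the threshold of an adjusted p under 0.05 (quasi-likelihood F test of edgeR, Benjamini-Hochberg adjusted across all 16237 genes), and 0.0123% of all genes did. At an unadjusted p under 0.05 there was 1 member, Cfb, against 11.3% of all genes. Cfb was also the one member whose KO and WT libraries did not overlap, which held for 16.8% of all genes. Without WT replicate 2 the median of the members was -0.03 and 6 of the 9 lay below 0. DESeq2, which made 457 calls over all genes, called Cfb alone among the members, and limma-voom called none. In such bulk tissue, fewer cells of a type and less RNA per cell cannot be told apart.

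**Figure D1:**
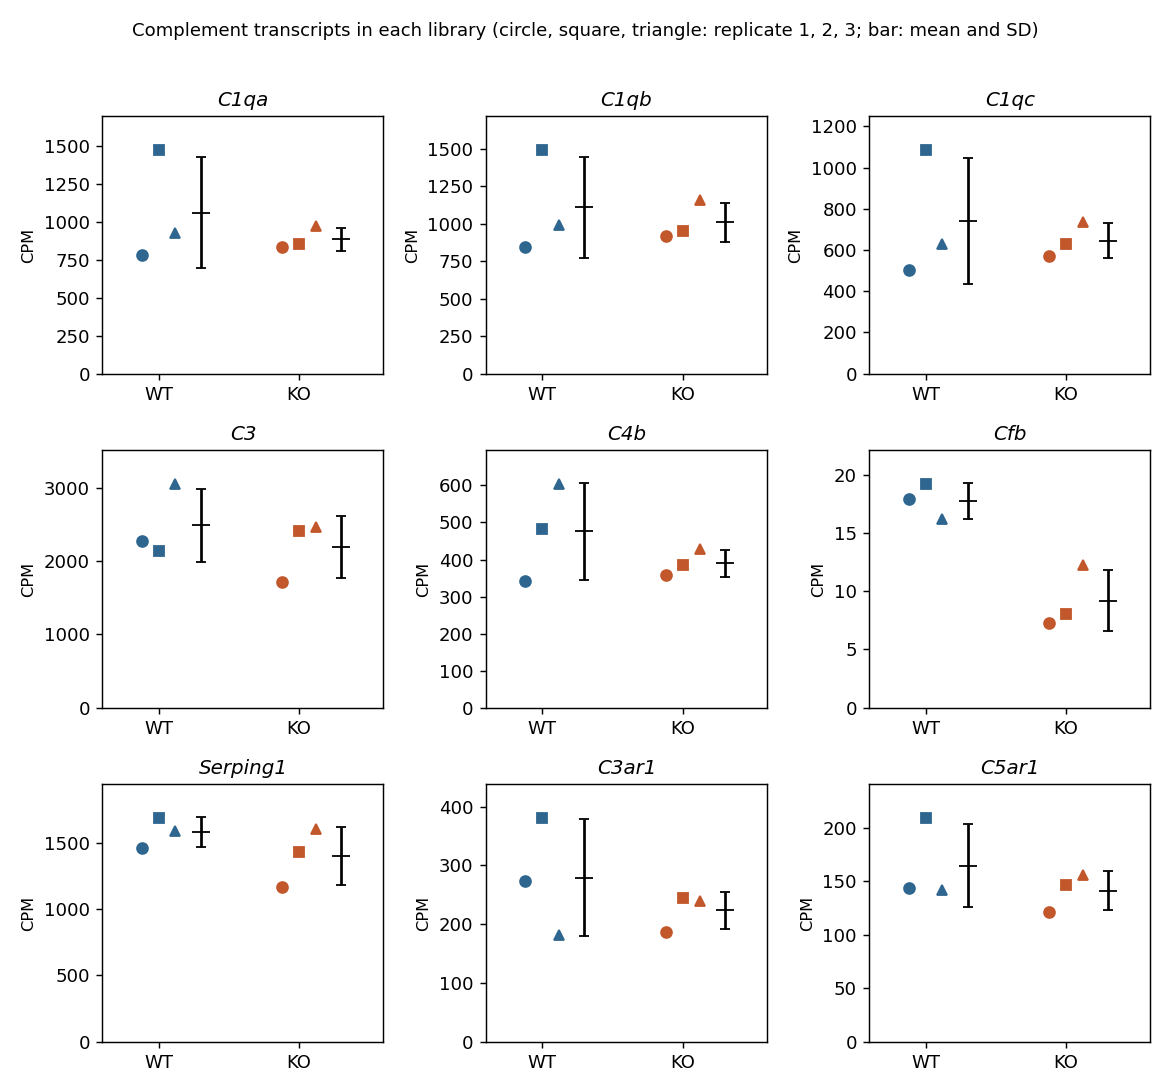
CPM of the 9 members (y axes from 0) in WT (blue) and KO (orange) libraries, with the replicate shown by its symbol and a black bar for mean and SD (n = 3). Cfb has every KO library (7.29 to 12.2 CPM) under every WT library (16.2 to 19.2 CPM), and the square of WT replicate 2 is the highest point of the C1q genes and both receptor genes.

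Levels per length ordered the members. In CPM per kilobase of annotated exon, means over the 6 libraries were 972 ± 217 for C1qb and 935 ± 244 for C1qa (SD, n = 6). Their ranges overlapped, and C1qb was above C1qa in 5 of the 6 libraries. Serping1 followed at 641 ± 79.7, C3 at 456 ± 85.8 and C1qc at 359 ± 108. C1qa was above Serping1 and Serping1 above C3 in all 6 libraries, whereas C3 was above C1qc in 5. C1qc carries more annotated exon (1.93 kilobases) than C1qa (1.04) or C1qb (1.09), so its place in this order rests on that annotated length. C4b stood at 76.1 ± 17.2, C5ar1 at 59.6 ± 11.6 and C3ar1 at 58.4 ± 16.9. The ranges of the last pair overlapped, and C5ar1 was above C3ar1 in 4 of the 6 libraries. Cfb came last at 4.77 ± 1.80. Of its exon bases 79.5% are shared with another gene, as described further on, so its level and rank by length are uncertain. By this measure C1qb ranked 28th and C1qa 32nd of 16221 genes with a length, Serping1 54th, C3 80th and Cfb 8080th.

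The C1q genes lie side by side on chromosome 4 (GRCm38, minus strand): C1qb (ENSMUSG00000036905) from 136880129 to 136886187, C1qc (ENSMUSG00000036896) from 136889804 to 136893065 and C1qa (ENSMUSG00000036887) from 136895917 to 136898803. No exon base of any of them overlaps another gene. KO libraries held 834, 851 and 972 CPM of C1qa, and WT libraries 781, 1473 and 926 CPM. The KO libraries fell inside the WT range, which was set by WT replicate 2. C1qb came to 917, 949 and 1156 CPM with the KO genotype and 846, 1491 and 988 CPM with the WT genotype. C1qc came to 569, 628 and 737 CPM against 503.5, 1086 and 632 CPM, KO first. In each chain WT replicate 1 was the lowest library and WT replicate 2 the highest.

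The chains kept nearly fixed proportions. C1qa per kilobase was 0.880 to 1.03 times C1qb per kilobase over the 6 libraries, and C1qc was 0.335 to 0.410 times C1qb, while C1qb itself ranged from 1.53 to 3.30 times C3. Log2 fold changes of KO against WT were -0.26 for C1qa (SE 0.23, 95% interval -0.77 to 0.26), -0.14 for C1qb (SE 0.22, -0.63 to 0.36) and -0.20 for C1qc (SE 0.26, -0.79 to 0.39). Their adjusted p-values were 0.746, 0.89 and 0.86 (edgeR's quasi-likelihood test). Without WT replicate 2 all 3 signs turned, to 0.05, 0.14 and 0.18. Without KO replicate 3 the value of C1qb was -0.25. WT replicate 2 is also the library in which Lyz2 was nearly missing, and the part of that in the C1q values was not tested.

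C1q was then set against the genes listed as macrophage markers, which other cells of the tissue may also express. The mean log2 CPM of the chains minus that of the 16 macrophage markers, none of them a complement gene, was 3.08, 3.07 and 3.11 for the KO libraries and 2.95, 3.35 and 2.997 for the WT libraries. The means of 3.08 ± 0.02 in KO and 3.10 ± 0.22 in WT (SD, n = 3) differed by -0.01 (exact two-sided permutation p = 1, where 3 against 3 allows no p under 0.1). Without WT replicate 2 the difference was 0.11, with both remaining WT libraries below the KO range. The markers summed to 3208 to 3947 CPM in KO and 3701 to 4769 CPM in WT, and WT replicate 2 was the highest there too. Of the 16 markers 11 had the lower mean with KO, with a median log2 fold change of -0.14. In edgeR 0 passed, and 2 lower and 1 higher had an unadjusted p under 0.05, beside 11.3% of all genes. DESeq2 called 1 of the markers, Laptm5, which was lower, among 457 calls over all genes.

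The receptor genes encode G protein-coupled receptors found chiefly on myeloid cells. C3ar1 (ENSMUSG00000040552, chromosome 6, 122847138 to 122856161) had 187, 244 and 239 CPM across KO libraries and 274, 381 and 182 CPM across WT libraries. The lowest and the highest of the 6 values were both WT libraries. C5ar1 (ENSMUSG00000049130, chromosome 7, 16246743 to 16259540) had 121, 146 and 156 CPM across KO libraries and 144, 209 and 142 CPM across WT libraries, again with WT replicate 2 on top. The log2 fold change of C3ar1 was -0.32 (SE 0.24, 95% interval -0.87 to 0.23) and that of C5ar1 -0.22 (SE 0.17, -0.62 to 0.17), with adjusted p-values of 0.699 and 0.712 (edgeR's quasi-likelihood test). Without WT replicate 2 they were -0.03 and -0.01, and without WT replicate 3 that of C3ar1 was -0.55 (unadjusted p = 0.0167, edgeR). C5ar2, the other C5a receptor, averaged 21.6 ± 4.15 CPM among KO libraries and 21.3 ± 3.03 CPM among WT libraries (SD, n = 3).

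C3 and C4b were highest in WT replicate 3, whereas Serping1, like the C1q chains, was highest in WT replicate 2. C3 (ENSMUSG00000024164, chromosome 17, 57203970 to 57228136) reached 1712, 2411 and 2464 CPM with KO and 2284, 2135 and 3057 CPM with WT. It took 23.8 to 37.6% of the members' counts per library and the C1q chains together took 31.3 to 45.2%, with C3 ahead of their sum in WT replicates 1 and 3. C4b (ENSMUSG00000073418, chromosome 17, 34728380 to 34743882), whose product C4 is cleaved by C1s, reached 358, 384 and 429.7 CPM with KO and 343, 482 and 604 CPM with WT. Serping1 (ENSMUSG00000023224, chromosome 2, 84765387 to 84775444) reached 1165, 1430.5 and 1605 CPM with KO and 1462, 1687 and 1588 CPM with WT. In all 3 genes the KO and WT libraries overlapped.

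Log2 fold changes were -0.18 for C3 (SE 0.21, 95% interval -0.65 to 0.29), -0.29 for C4b (SE 0.20, -0.73 to 0.16) and -0.17 for Serping1 (SE 0.16, -0.54 to 0.19). The adjusted p-values were 0.824, 0.66 and 0.765 (edgeR's quasi-likelihood test). The value of Serping1 was -0.06 without KO replicate 1 and -0.28 without KO replicate 3, and that of C3 was -0.03 without KO replicate 1. Without WT replicate 3 the values of C3 and C4b were -0.01 and -0.08, and without WT replicate 1 that of C4b was -0.48 (adjusted p = 0.303, edgeR). The fibroblast markers, led by Col3a1, Col1a2 and Col1a1, summed to 37000 to 47500 CPM in KO and 44755 to 56404 CPM in WT, with WT replicate 3 the highest. Their part in the C3 and C4b values was not tested. C4b has a near copy, C4a, which averaged 2.001 ± 0.614 CPM among KO libraries and 1.22 ± 0.147 CPM among WT libraries (SD, n = 3), so reads may be shared and both counts are uncertain.

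Cfb, which encodes the factor B protease of the alternative route and is known as an interferon-inducible gene, showed the widest difference of the 9. The KO libraries gave 127, 158 and 262 Cfb counts and the WT libraries 330, 317 and 281, or 7.29, 8.08 and 12.2 CPM against 17.9, 19.2 and 16.2 CPM. All KO libraries were below all WT libraries, and KO replicate 3 was nearest to them. The KO mean of 9.19 ± 2.65 CPM was 51.7% of the WT mean of 17.8 ± 1.53 CPM (SD, n = 3). The log2 fold change was -0.95 (SE 0.21, 95% interval -1.42 to -0.47), with an unadjusted p of 0.00143 and an adjusted p of 0.139 (edgeR's quasi-likelihood test), so it did not pass. DESeq2 gave -0.95 with an adjusted p of 0.00346, and edgeR without a filter on low counts -0.95 with 0.00389. The adjusted p ran from 0.116 to 0.36 with any 1 library left out, and the log2 fold change from -0.81 without KO replicate 1 to -1.21 without KO replicate 3.

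The count of Cfb is uncertain. Cfb (ENSMUSG00000090231) lies on chromosome 17 from 34856374 to 34862518, next to C2, and 79.5% of its 2825 exon bases are also exon bases of Gm20547, a gene on the same strand that joins C2 and Cfb. All exon bases of Gm20547 lie in exons of C2 or Cfb, and its row held 0 counts in all 6 libraries, so reads over the shared exons were not credited to it. The sources used here do not say whether they were dropped. If they were, the counts of Cfb and C2 are too low. Over the 579 unshared bases alone, the Cfb counts come to a mean of 15.9 CPM per kilobase for KO and 30.7 for WT, against 3.25 and 6.29 over all its exon bases. C2, which shares 42.8% of its exon bases with Gm20547, averaged 43.6 ± 8.18 CPM among KO and 53.2 ± 4.54 CPM among WT libraries (SD, n = 3), with a log2 fold change of -0.29 (SE 0.15).

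Cfb stood low in the libraries in which interferon response genes stood low. The mean log2 CPM of 20 such genes, none of them a complement gene, was 7.19, 7.15 and 7.51 for the KO libraries and 8.15, 8.31 and 7.79 for the WT libraries. All 20, led by Irf7, Gbp2 and Oasl2, had the lower mean with KO, with a median log2 fold change of -0.88. Of all tested genes 48.8% had a value below 0. By edgeR 0 passed and 17 had an unadjusted p under 0.05, against 11.3% of all genes. DESeq2 called 14, among 457 calls over all genes, and limma-voom called 0. The list was chosen with earlier results of these data known, so these counts are not a test of it. The part of these genes in the Cfb value was not tested. C3, C4b and Serping1 stood at -0.18, -0.29 and -0.17, with 95% intervals that reach down to -0.65, -0.73 and -0.54.

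**Figure D2:**
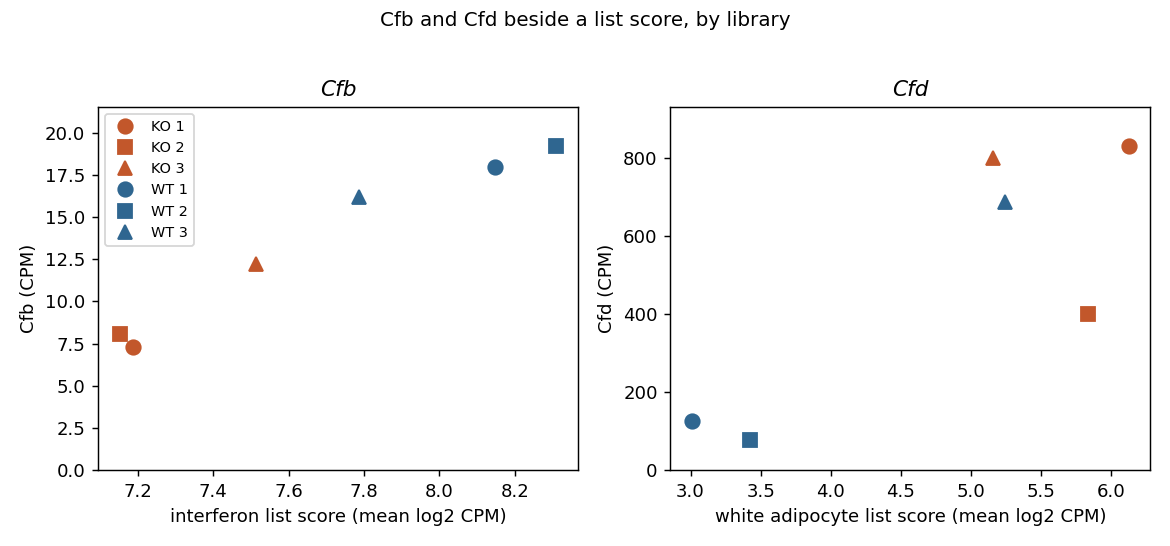
Left, Cfb (CPM) against the mean log2 CPM of 20 interferon response genes. Right, Cfd (CPM) against the mean log2 CPM of 13 white adipocyte genes. Each point is a library of WT (blue) or KO (orange). KO replicate 3 lies between the other KO libraries and the WT libraries on the left, and WT replicate 3 lies beside KO replicate 3 on the right.

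The likeness of patterns was measured as the root mean square difference of log2 CPM, centred on each gene's mean, over the 6 libraries. Each member was compared with 10357 other tested genes, those with a mean of at least 10 CPM. Values are differences in log2 units, and the libraries are shared by all genes. C1qa and C1qb differed by 0.07, C1qa and C1qc by 0.08, and C1qb and C1qc by 0.09. For C1qc the other chains were the nearest and the third nearest of the 10357 genes, with Smagp between them at 0.08. C5ar1 was within 0.12 to 0.17 of the chains, and C3ar1 within 0.26 to 0.29. C3 differed from the chains by 0.37 to 0.43, from C4b by 0.21 and from Serping1 by 0.18. Serping1 itself was nearest to C5ar1 among the members (0.14), then to C3, C1qb (0.21) and C4b (0.22). Even so, C5ar1 ranked 1181st of the 10357 genes by nearness to Serping1. Cfb differed from every other member by 0.42 to 0.53. This measure grows with a gene's own spread, and the SD of log2 CPM over libraries was 0.59 for Cfb and 0.19 for Serping1. Differences of different members are therefore not on 1 scale.

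Most members had closer neighbours outside complement. The genes nearest to C1qa were Smagp, C1qb and Lpcat4, and those nearest to C1qb were Smagp (0.04), Stom and Calhm2. Nearest to C3 were Col16a1, Piezo1 and Plxnd1, and nearest to C4b were Snai1, Unc45a and Sf3a2, all at 0.07 to 0.08. Serping1 had Rnf216, Hvcn1 and Zfp746 at 0.05, and C5ar1 had Slc9a9, Itm2b and Lax1 at 0.05 to 0.06. C3ar1 had none of the 10357 genes nearer than Clec4a2 (0.11), followed by Actb and Pira2. Nearest to Cfb were Zbp1 (0.10), Stat2 (0.10) and Ly6i (0.11), with log2 fold changes of -1.01, -0.84 and -0.83.

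**Figure D3:**
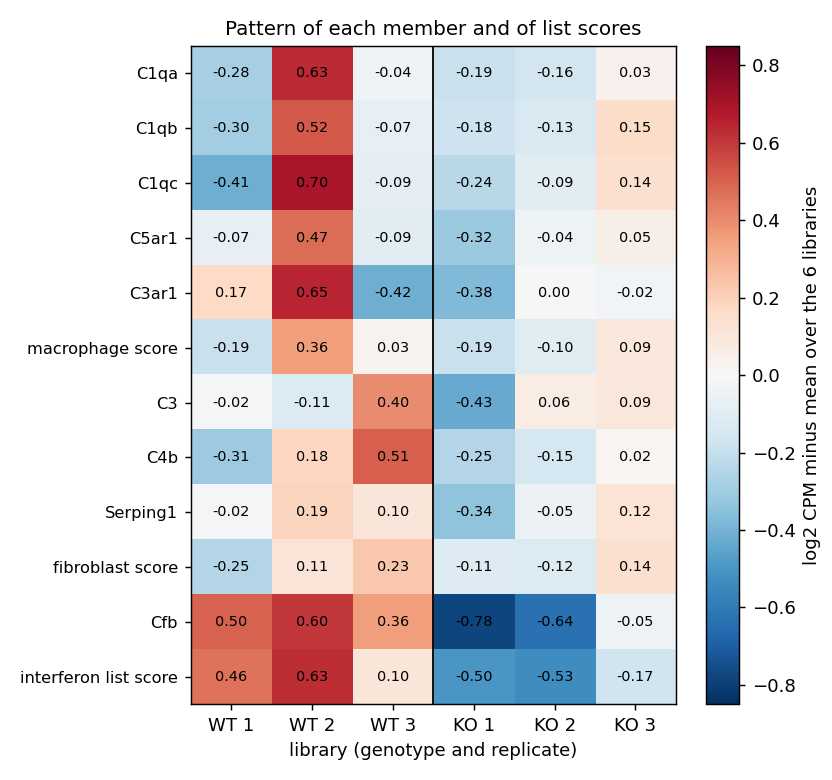
Centred log2 CPM (colour and number, log2 units) of the 9 members and of 3 list scores (mean log2 CPM of the macrophage, fibroblast and interferon lists) in each library. The C1q rows reach 0.52 to 0.70 in WT replicate 2, C3 and C4b peak in WT replicate 3 at 0.40 and 0.51, and Cfb runs from -0.78 to 0.60 between the genotypes.

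The rest of the pathway was read from 48 further complement genes, of which 35 were tested. Of these 17 had the lower and 18 the higher mean with KO, with a median log2 fold change of 0.0008, and 0 passed (edgeR's quasi-likelihood test). At an unadjusted p under 0.05 there were 1 lower and 3 higher, beside 11.3% of all genes. KO and WT libraries did not overlap in 4 lower and 5 higher genes, beside 16.8% of all genes. DESeq2 called 2, Cd59a and Clu, among 457 calls over all genes, and limma-voom 0.

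Among 10 tested genes of the classical and lectin routes 6 had a lower mean. C1s1 and C1ra, the proteases of the C1 complex, averaged 373 ± 49.9 and 210.4 ± 29.3 CPM among KO libraries and 423 ± 11.5 and 256 ± 22.8 CPM among WT libraries (SD, n = 3), with log2 fold changes of -0.18 (SE 0.13) and -0.28 (SE 0.14), which were -0.08 and -0.175 without KO replicate 1. C1s1 was lower in every KO library than in every WT library, beside 16.8% of all genes without overlap in either direction. Of the exon bases of C1s1, 18.4% overlap an antisense gene. Colec12, a scavenger receptor with a collectin domain, had a value of 0.004 (SE 0.10). C1rb, a copy of C1ra with which it can share reads, had 17, 38 and 24 counts across KO libraries and 61, 51 and 57 across WT libraries. The edgeR adjusted p of C1rb was 0.194 at a log2 fold change of -1.26 (SE 0.33), which ranged from -1.61 to -1.08 with 1 library left out. Colec11, a soluble pattern receptor of the lectin route, was at 4.46 ± 1.26 against 2.89 ± 0.173 CPM (log2 fold change 0.62, SE 0.27). Without KO replicate 3 its value was 0.37 and its unadjusted p went from 0.0449 to 0.217 (edgeR). The mannose-binding lectin genes Mbl1 and Mbl2 had 1 count and 0 counts over all 6 libraries.

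In the alternative route Cfd, which encodes the protease that activates factor B and is made chiefly by fat cells, ran to 833, 399.6 and 802 CPM with KO and 127, 76.3 and 689 CPM with WT. WT replicate 3 lay among the KO libraries. Its edgeR adjusted p was 0.586 at a log2 fold change of 1.19 (SE 0.70), and 0.0189 at 2.73 without WT replicate 3, and without WT replicate 2 the fold change was 0.73. The 13 white adipocyte markers, led by Car3, Fabp4 and Pnpla2, summed to 1534 to 3007 CPM in KO, 409 and 487 CPM in WT replicates 1 and 2, and 1621 CPM in WT replicate 3, and their part in the Cfd value was not tested. Cfp, encoding properdin, which steadies the convertase, averaged 343 ± 72.4 CPM among KO and 352 ± 80.3 CPM among WT libraries (SD, n = 3).

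Among the regulators higher means in KO were the more frequent. Of 10 with a test result 7 stood higher, with a median log2 fold change of 0.25, and 2 had an unadjusted p under 0.05, both higher. Of all genes 48.8% had a value below 0, and 11.3% had such a p in either direction. Clu, encoding clusterin, which binds the forming membrane attack complex, ran to 429, 482 and 602 CPM with KO and 329, 381 and 346 CPM with WT. Cd59a, a membrane blocker of the attack complex, ran to 32.7, 19.7 and 16.2 CPM with KO and 8.59, 10.004 and 14.4 CPM with WT. In both genes no KO library overlapped a WT library, which held for 16.8% of all genes in either direction. The log2 fold changes of Clu and Cd59a were 0.52 (SE 0.15) and 1.05 (SE 0.29), with adjusted p-values of 0.238 and 0.206 (edgeR's quasi-likelihood test). With 1 library left out that of Clu ranged from 0.37 to 0.62 and that of Cd59a from 0.71 to 1.30. Cr1l, encoding the rodent membrane inhibitor Crry, averaged 86.9 ± 4.38 CPM among KO and 91.1 ± 5.21 CPM among WT libraries (SD, n = 3), a log2 difference of -0.07 (SE 0.10). Cd59b, the copy of Cd59a, can share its reads, so both are uncertain. Smooth muscle markers, led by Acta2, Myh11 and Smtn, also stood higher in KO, at sums of 1736 to 2666 against 1054 to 1531 CPM, and their part in these values was not tested.

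The terminal genes were scarce. C7, a part of the membrane attack complex, averaged 46.7 ± 18.6 CPM among KO libraries and 45.4 ± 20.9 CPM among WT libraries (SD, n = 3). C8g averaged 3.97 ± 0.534 and 3.23 ± 0.116 CPM, C6 2.30 ± 1.11 and 2.29 ± 1.498 CPM, and Hc, which encodes C5, 0.860 ± 0.331 and 0.913 ± 0.484 CPM, KO first. C8a, C8b and C9 were not tested, and C8b had 0 counts throughout. Of 9 tested receptors and binding partners, besides C3ar1 and C5ar1, 6 had the lower mean and 0 had an unadjusted p under 0.05. Over all genes these shares were 48.8 and 11.3%. Calr (-0.06, SE 0.20), Itgb2, a shared chain of complement receptors 3 and 4 (-0.14, SE 0.15), and Lrp1 (-0.29, SE 0.15) had the highest levels per length of this group. Lrp1, a large endocytic receptor, was lower in every KO library than in every WT library, beside 16.8% of all genes without overlap in either direction. With 1 library left out Itgb2 ranged from -0.26 without KO replicate 3 to -0.02 without KO replicate 1, and Lrp1 was -0.155 without WT replicate 3.

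**Figure D4:**
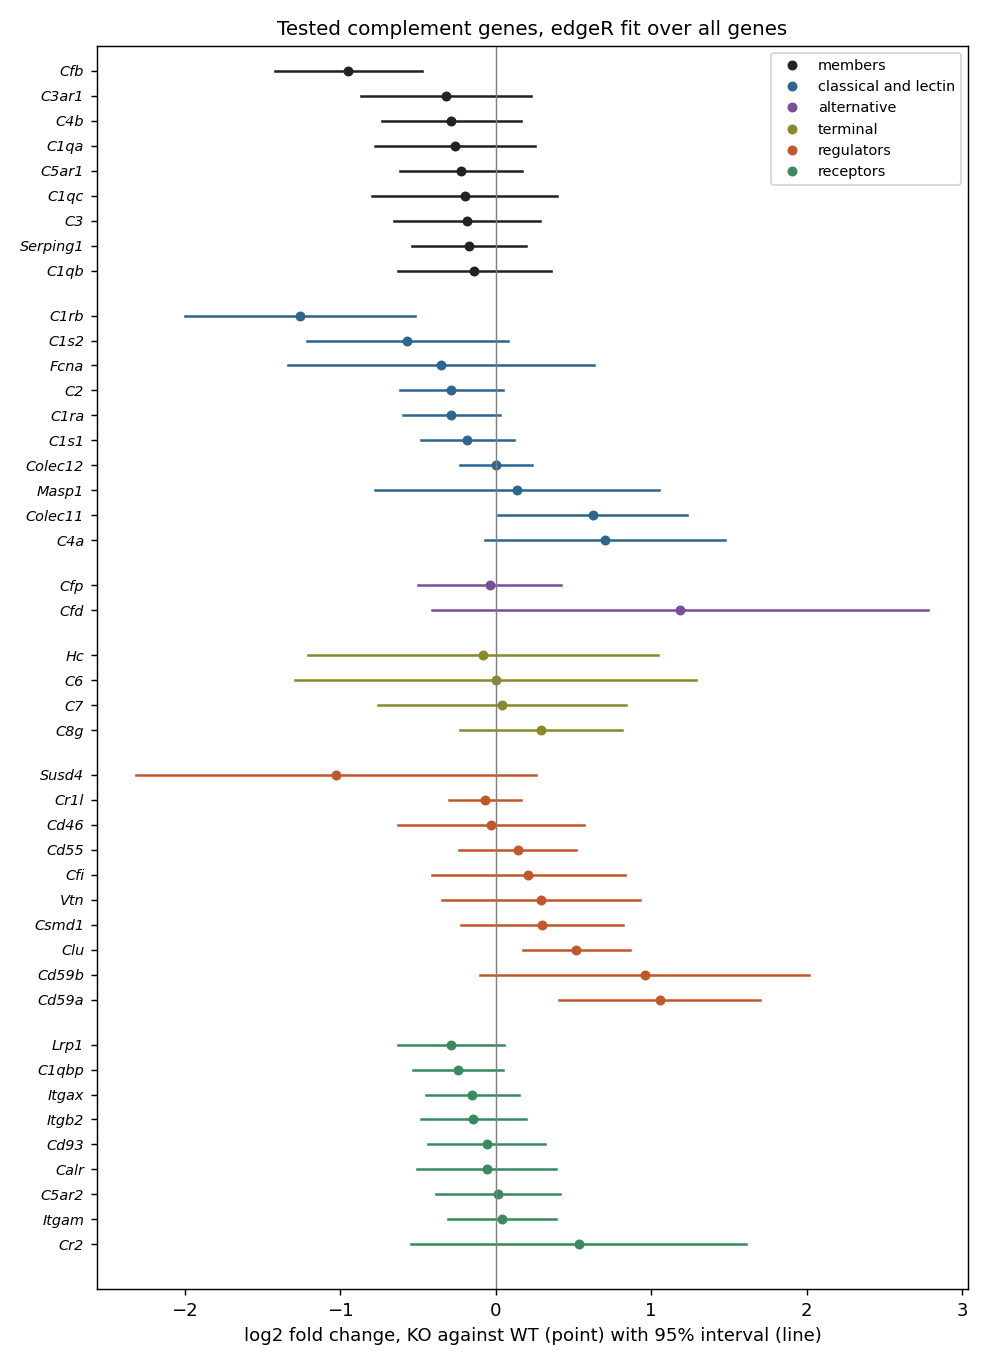
Log2 fold change of KO against WT (points) with 95% intervals (lines) for the 9 members and 35 other tested complement genes by role. Among the members the interval of Cfb (-1.42 to -0.47) is the one that leaves out 0, and among regulators the intervals of Clu and Cd59a lie right of 0.

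Markers of other cells and responses were read in the same fit, where 0 passed in every list by edgeR and by limma-voom. Of 10 genes listed as classical monocyte markers, 7 had the lower mean with KO (median log2 fold change -0.48). That list was led by Fn1, which stood at 0.16, Plac8 (-0.86) and Ccr2 (-0.34). Whether other cells of the tissue also gave these transcripts was not tested. Of 10 neutrophil markers, led by Csf3r, S100a9 and S100a8, 7 had a higher mean (median 0.18). Of 12 genes of the IL-6 and acute phase response, led by Hp, Saa3 and Il6st, 7 had the lower mean (median -0.06), and of 12 fibroblast genes 6 did (median 0.01). All 13 white adipocyte markers and 9 of 10 smooth muscle markers had a higher mean (medians 1.54 and 0.78). At an unadjusted p under 0.05 there were 5 lower and 1 higher of the monocyte markers, 2 higher of the neutrophil markers, and 8 higher in each of the adipocyte and smooth muscle lists. Of all genes 11.3% had such a p in either direction. DESeq2 called 4 monocyte markers lower, and 2 adipocyte and 7 smooth muscle markers higher, among 457 calls over all genes. These lists too were chosen with earlier results of these data known. Hp and Ahsg of the hepatocyte list had log2 fold changes of 0.49 and 0.10.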

How the data were processed

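The deposited table holds whole-number read counts of 54532 genes for 3 KO and 3 WT libraries of poly-T selected RNA, per the labels' protocols. The submitters' processing notes name HISAT2 2.0.5, featureCounts 1.5.0-p3 and GRCm38. Strand setting, annotation release, the handling of reads that match several genes and any pooling of animals were not given in the sources used here. Counts were fitted in R 4.3.3 with edgeR 4.0.16: filterByExpr left 16237 genes, TMM scaled the libraries, and KO was tested against WT across all genes by the quasi-likelihood test with Benjamini-Hochberg adjustment. A standard error is the log2 fold change over the square root of F, and log2 CPM values were made with prior count 2. Levels per length divided CPM by merged exon length in GENCODE M21 (GRCm38). The fit was tested on simulated data.

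The members and gene lists were chosen with earlier results of these data known. One complement regulator is not reported here and is left out of the lists. Genes were named by a rule: all members, other complement genes with an unadjusted p under 0.05 or among the 3 highest per length of their list, the 3 highest markers of each list and the 3 nearest patterns. C2, C4a, C5ar2, Cd59b, Hc, Mbl1, Mbl2, C8a, C8b, C9, Gm20547, Lyz1, Lyz2, Acta1, Alb, Fgb and Laptm5's DESeq2 call were added after values were seen. Alternatives used other scalings, no filter, DESeq2 1.42.0, limma-voom (limma 3.58.1), the replicate number as a block, and fits that each leave out 1 library. Figures used matplotlib 3.10.9.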

Additional observations from a re-analysis of the deposited data

How the results depend on the processing

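Of 117 refits of a member's log2 fold change under the alternatives, 112 kept their direction and their side of the threshold, 3 turned (the C1q chains without WT replicate 2) and 2 passed (Cfb under DESeq2 and with no filter). Over all genes 2 passed by edgeR, 644 with no filter on low counts, 457 with DESeq2, 0 with limma-voom, and 0 to 155 with 1 library left out (155 without WT replicate 3). Members called numbered 1 with no filter and 1 with DESeq2, and 0 under the other alternatives. Other complement genes called numbered 1 with no filter (Cd59a), 2 with DESeq2 (Cd59a at an adjusted p of 0.0102 and Clu at 0.0356), and 0 to 1 with 1 library left out, the call being Cfd without WT replicate 3. The cause was not tested.

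The C1q to macrophage marker difference of -0.01 ranged from -0.09 to 0.11 with 1 library left out. With 1 library left out the ranges were -0.44 to 0.053 for C1qa, -0.30 to 0.14 for C1qb, -0.42 to 0.18 for C1qc, -0.43 to 0.53 for C6, -0.26 to 0.49 for C7, -0.19 to 0.15 for Calr, -0.21 to 0.14 for Cfp and -0.035 to 0.050 for Colec12. Near 0 the sign of C6 also turned with RLE size factors (-0.001) and DESeq2 (-0.004), that of Cfp with library size alone (0.002) and that of Colec12 with DESeq2 (-0.002). Scaling moved the median of all genes to at most 0.04.

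With the replicate number as a block 0 genes passed, and Cfb had a log2 fold change of -0.98. Deviations of same-numbered libraries correlated at -0.101, -0.062 and -0.12, which shows no pairing by these numbers. With 3 libraries per group, each centred on its group mean, this check cannot exclude one. Low counts limit the scarce genes, since Cfb had 127 to 330 counts and Mbl1, Mbl2 and C8b 0 or 1. Cfb shares 79.5% of its exon bases with Gm20547, and the part of depth in its low count was not tested.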
